A study of Rattus norvegicus with 10 samples.

Results

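The genes described here are transporters of the solute carrier family SLC2, whose best known members let glucose cross cell membranes down its concentration gradient. They were chosen by name from a list of 8 genes, *Slc2a1*, *Slc2a3*, *Slc2a4*, *Slc2a6*, *Slc2a8*, *Slc2a10*, *Slc2a12* and *Slc2a13*. Of these, 5 have a row in the table of 12828 genes and are described below. *Slc2a3*, *Slc2a4* and *Slc2a10* were not analysed here.

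The RNA came from the arcuate nucleus (ARC), the nutrient-sensing nucleus at the base of the hypothalamus, of 10 first-time pregnant Wistar dams killed at parturition after a daytime fast. All dams ate an AIN-93G diet in pregnancy with folate at 5X the recommended amount, 5 as folic acid (5X-FA) and 5 as equimolar [6S]-5-methyltetrahydrofolic acid (5X-MTHF). The labels give strain, diet and replicate number, and no age. The ARC was cut free-hand from frozen coronal slices, so the pieces may hold tissue from outside the ARC. Each sample is a mixture of cell types in which fewer cells of a type and less RNA per cell cannot be told apart. The study asked whether the form of folate changed gene expression, but the per-library columns carry names that match no sample label. The diets were therefore not compared here, and no spread between dams, test or leave-out value is given. Every level below is the authors' mean for the whole comparison, the average log2 CPM (reads of a gene per 1000000 reads of the library), and CPM was obtained from it as a power of 2. How deeply single libraries were sequenced is not shown by these values.

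Glucose is the main fuel of the brain. It passes the blood-brain barrier mostly through the transporter that *Slc2a1* encodes, GLUT1, and neurons take it up mainly through GLUT3. In the ARC, glucose also acts as a signal, which neurons and the tanycytes lining the third ventricle sense. Not all SLC2 proteins work at the cell surface or carry glucose: GLUT8 and GLUT6, encoded by *Slc2a8* and *Slc2a6*, sit mostly on membranes inside the cell, and the product of *Slc2a13*, HMIT, moves myo-inositol together with protons. Of the genes measured here, *Slc2a13* therefore bears the family name without being a known facilitative glucose transporter.

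The promoter windows of 3 of the genes are shown because they span the range of base composition found among the 5. The first pair belongs to the genes with the most reads, and the last is the window poorest in G and C. Each runs 5′ to 3′ on the gene's strand from 250 bases before to 50 bases after the start site in RefSeq, on build GRCr8. Capitals mark matches on either strand to any of 5 short motifs. The TATA box was searched as the letters TATAAA, and the GC box, a site of Sp1-like factors, as GGGCGG. The motif named after its letters CCAAT is bound by nuclear factor Y. The E-box of clock and carbohydrate-response factors was searched as CACGTG, and the core of hypoxia response elements as ACGTG, which every such E-box also holds. The motifs were chosen after the sequences had been seen.
Slc2a13, chr7:124606097-124606396, minus strand: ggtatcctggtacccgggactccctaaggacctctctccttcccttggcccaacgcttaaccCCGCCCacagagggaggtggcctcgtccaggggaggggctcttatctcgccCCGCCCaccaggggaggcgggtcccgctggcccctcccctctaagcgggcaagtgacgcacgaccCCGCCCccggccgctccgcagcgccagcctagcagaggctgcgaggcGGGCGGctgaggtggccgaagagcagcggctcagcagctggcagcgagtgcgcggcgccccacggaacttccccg
Slc2a1, chr5:138002272-138002571, plus strand: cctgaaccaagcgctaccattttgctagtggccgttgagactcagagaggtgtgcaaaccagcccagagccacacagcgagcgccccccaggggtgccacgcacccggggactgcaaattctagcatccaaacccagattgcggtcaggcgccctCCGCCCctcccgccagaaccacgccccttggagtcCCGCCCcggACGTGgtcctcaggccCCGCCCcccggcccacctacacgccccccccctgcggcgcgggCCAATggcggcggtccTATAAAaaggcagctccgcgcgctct
Slc2a12, chr1:24677166-24677465, minus strand: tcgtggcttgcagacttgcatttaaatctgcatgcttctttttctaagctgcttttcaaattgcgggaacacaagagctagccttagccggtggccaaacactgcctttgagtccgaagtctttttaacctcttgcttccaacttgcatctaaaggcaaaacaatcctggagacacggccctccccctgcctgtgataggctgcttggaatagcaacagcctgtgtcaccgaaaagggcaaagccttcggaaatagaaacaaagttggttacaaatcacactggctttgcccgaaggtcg

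The levels of the 5 genes spanned a range of 3.78 log2 units. The authors had filtered out genes with few reads, so every row, these 5 included, has reads by selection. Quartiles and percentiles are thus ranks among genes that passed the filter, not among all genes of the genome. The average level was 7.64 log2 CPM for *Slc2a13*, 6.81 for *Slc2a1*, 5.20 for *Slc2a8*, 3.98 for *Slc2a12* and 3.86 for *Slc2a6*. The table as a whole had a median of 4.94 log2 CPM and quartiles of 3.65 and 6.18, so 3 of the 5 genes lay above the median, 2 of them above the upper quartile, and none below the lower quartile. CPM counts reads and is not scaled to transcript length. The order is therefore one of read share, not of transcripts per cell, and no length of a spliced transcript was at hand to convert it. Without a spread between dams, it was also not tested whether neighbours in this order differ.

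**Figure D1:**
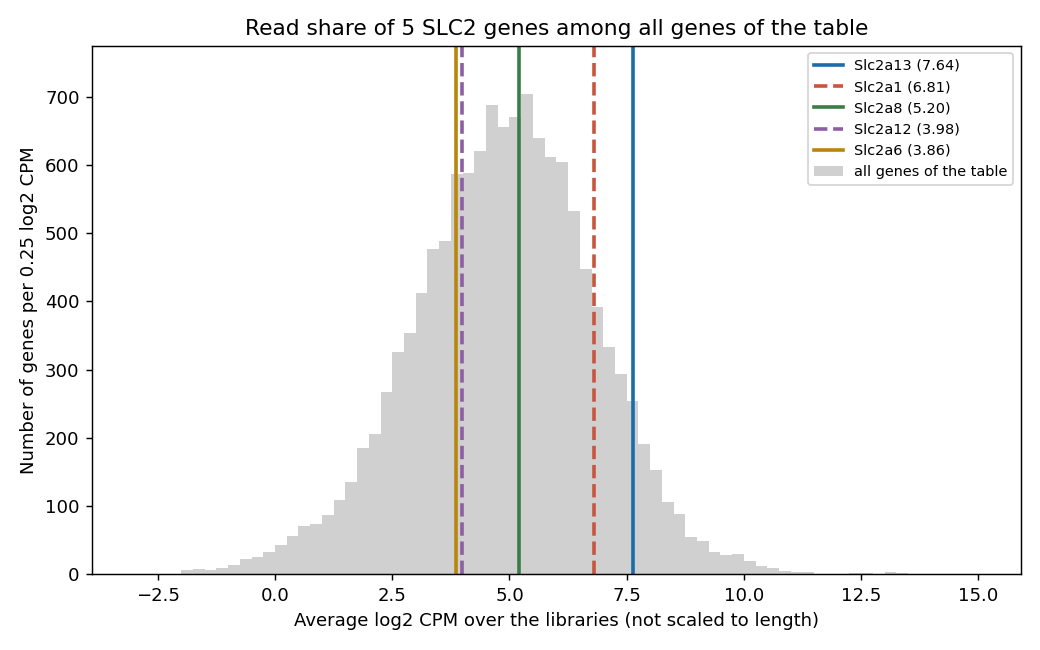
Histogram of the average log2 CPM of all 12828 genes (grey bars, number of genes per 0.25 log2 units), with a vertical line for each of the 5 SLC2 genes. *Slc2a12* and *Slc2a6* lie side by side left of the centre at 3.98 and 3.86, *Slc2a8* is close to the centre at 5.20, and *Slc2a1* and *Slc2a13* lie to the right at 6.81 and 7.64.

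*Slc2a1* encodes GLUT1, which endothelial cells of brain vessels carry in large amounts and which astrocytes carry as well. The gene (ENSRNOG00000007284) lies on chromosome 5 from 138154673 to 138182897 of Rnor_6.0 and spans 28.2 kb. Its level was 112 CPM, higher in reads than 84.6% of the genes, with 1969 genes above it. The level was 6.81 log2 CPM, beside 6.28 for *Flt1*, 6.09 for *Abcb1a*, 5.77 for *Cldn5*, 4.85 for *Tek* and 4.50 for *Mfsd2a*, which mark brain endothelium. The pericyte markers *Pdgfrb* and *Kcnj8* were at 4.81 and 2.26, so that 3 of the 7 vessel genes with a row lay above the median of all genes.

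*Slc2a13* encodes HMIT, the proton-coupled myo-inositol transporter, found in neurons and glia. It is the longest of the 5 genes (ENSRNOG00000015741), reaching over 326.7 kb of chromosome 7 from 132430853 to 132757558 of Rnor_6.0. Its 199 CPM exceeded the read share of 93.0% of the genes, and 900 genes had more reads. Summed over the 5 genes there were 379 CPM, of which *Slc2a13* made up 52.6% and *Slc2a1* 29.7%. More than 1 in 2 reads of the 5 genes thus belonged to the one whose product is known for myo-inositol. Of 7 genes of the sodium-coupled SLC5 family, only *Slc5a11*, which encodes another myo-inositol carrier, has a row, at 3.62 log2 CPM.

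*Slc2a8* and *Slc2a6* encode the transporters GLUT8 and GLUT6 of internal membranes. Both lie on chromosome 3 of Rnor_6.0. *Slc2a8* (ENSRNOG00000022274), from 12020229 to 12029877, had 36.9 CPM and stood above 55.3% of the genes, close to the middle of the table. *Slc2a6* (ENSRNOG00000005900), from 5568321 to 5575136, is the shortest of the 5 at 6.82 kb and had 14.5 CPM, above 28.5% of the genes. In the table, *Slc2a6* overlaps *Cacfd1*, which runs from 5555807 to 5572064 and had 3.93 log2 CPM. How reads in the shared stretch were assigned is not given in the sources used here, so both levels are uncertain to that extent. The other 4 genes overlap no gene of the table.

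*Slc2a12* encodes GLUT12, a surface and vesicle transporter known from insulin-responsive tissues. The gene (ENSRNOG00000011161) extends over 52.7 kb of chromosome 1, from 24003625 to 24056373 of Rnor_6.0. Its 15.8 CPM lay above 30.6% of the genes and made up 4.16% of the reads of the 5 genes, beside 3.84% for *Slc2a6*. The nearest gene of the table, *Tbpl1*, ends 1.12 kb away.

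Of 5 further SLC2 genes, *Slc2a5* has a row, while *Slc2a2*, *Slc2a7*, *Slc2a9* and *Slc2a11* were not analysed here. *Slc2a5* encodes the fructose transporter GLUT5, known in brain from microglia, and its level was 2.83 log2 CPM (7.11 CPM), a smaller read share than that of each of the 5 genes above. The microglial genes *Csf1r*, *C1qa*, *Cx3cr1* and *P2ry12* were at 6.82, 5.40, 4.46 and 4.18 log2 CPM. Among all 230 solute carrier genes of the table, whose median was 5.11 log2 CPM, 17 had more reads than *Slc2a13*, 37 more than *Slc2a1*, 111 more than *Slc2a8*, 167 more than *Slc2a12* and 175 more than *Slc2a6*.

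Once inside the cell, glucose is phosphorylated by hexokinases and passed on to phosphofructokinase. Of 9 genes of this entry to glycolysis, 6 have a row, with a median of 8.35 log2 CPM and a range from 4.31 to 9.02. *Hk1*, the main hexokinase of brain, was at 8.42 log2 CPM and *Hk2* at 4.31. The muscle-type phosphofructokinase gene *Pfkm* was at 9.02, the platelet type *Pfkp* at 8.29 and the liver type *Pfkl* at 7.07. *Gpi*, whose product turns glucose 6-phosphate into fructose 6-phosphate, was at 8.97.

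A further list held genes that move transporters to the surface or remove them. It also held genes of insulin signaling and regulators such as *Hif1a*. Of the 24 genes of this mixed list, 21 have a row, with a median of 5.66 log2 CPM. Of these, 16 lie above the median of all genes. *Txnip*, whose protein drives the uptake of GLUT1 from the surface into the cell, was at 6.32 log2 CPM, and its relative *Arrdc4* at 3.56, the lowest of the list. *Vamp2*, a vesicle fusion protein used at synapses and in transporter traffic, was the highest at 9.64. Along the route from the insulin receptor, *Insr* was at 5.82, *Irs2* at 6.68, *Irs1* at 3.68, *Akt1* at 7.10 and *Akt2* at 5.10 log2 CPM. The Rab GTPase-activating proteins that insulin signaling switches off in muscle and fat, *Tbc1d1* and *Tbc1d4*, were at 5.25 and 3.96. *Hif1a*, a regulator of *Slc2a1* in low oxygen, was at 7.32 log2 CPM.

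**Figure D2:**
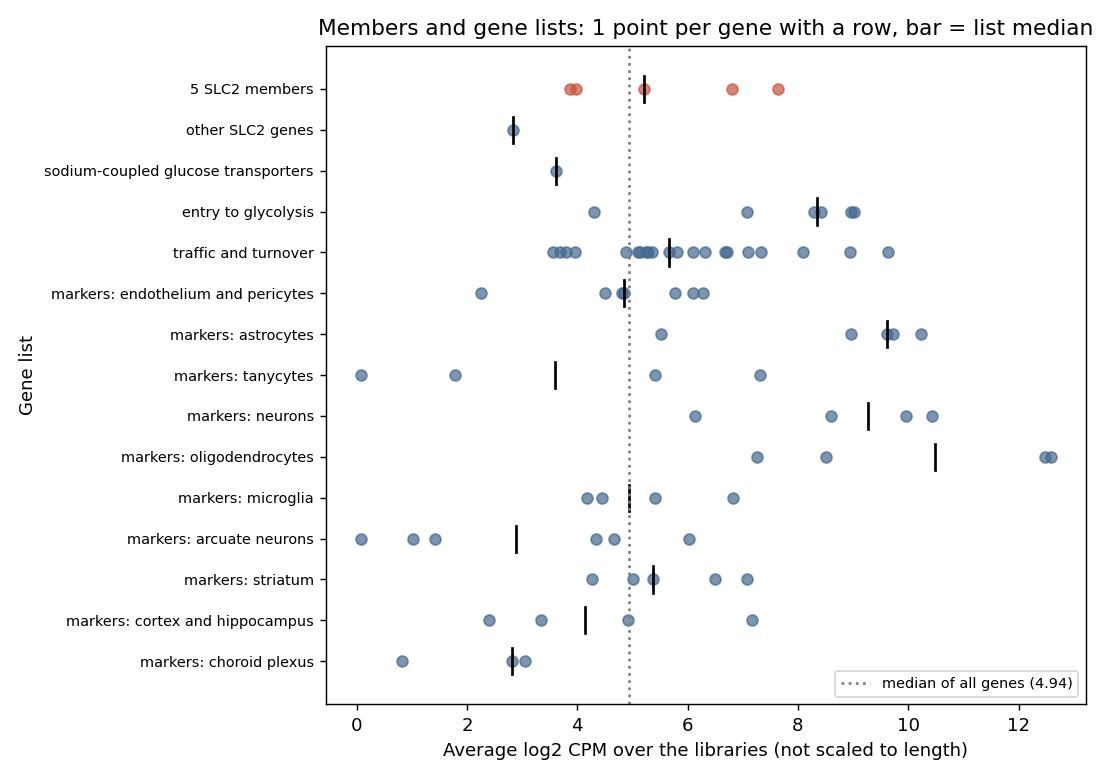
Average log2 CPM of each gene with a row (1 point per gene), by list, with the list's median as a black bar and the median of all genes (4.94) as a dotted line. The 5 SLC2 genes reach from 3.86 to 7.64, and most genes of the entry to glycolysis (list median 8.35) and all 5 astrocyte markers lie to the right of the dotted line.

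Marker genes of cell types and brain regions were also looked at. Of 51 marker genes in 10 lists, 46 have a row. Reads of the lists summed to 285 CPM over 7 endothelial and pericyte genes, 3376 CPM over 5 astrocyte genes, 2841 CPM over 4 neuronal genes, 12372 CPM over 4 oligodendrocyte genes, 195 CPM over 4 microglial genes and 207 CPM over 4 tanycyte genes. Most of the tanycyte sum came from *Vim* (160 CPM) and *Col25a1* (42.7 CPM), which other cells also express, while *Rax* and *Gpr50* had 1.06 and 3.44 CPM, at percentiles 1.04 and 5.58 of all genes. Of the ARC neuron markers, 6 of 7 have a row. *Cartpt* and *Pomc* were at 6.02 and 4.67 log2 CPM, *Tac3* at 4.34, *Agrp* at 1.42, *Ghrh* at 1.02 and *Kiss1* at 0.08. In the same order they stood at percentiles 72.0, 44.2, 37.6, 4.11, 2.92 and 1.06 of all genes. Genes that mark striatum were present too, with 5 of 5 found and *Ppp1r1b* at 7.07 log2 CPM, as was *Slc17a7*, a glutamate transporter gene of cortex and hippocampus, at 7.17. Their list sums were 116 CPM for ARC neurons, 318 CPM for striatum and 190 CPM for cortex and hippocampus, and choroid plexus markers summed to 17.2 CPM over 3 genes. The part of tissue from outside the ARC in the levels of the 5 transporters was not tested.

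The promoter windows of the 5 genes differed in base composition. The windows of *Slc2a13*, *Slc2a1*, *Slc2a6*, *Slc2a8* and *Slc2a12* had a G and C content of 72.0%, 68.3%, 64.7%, 58.7% and 48.0%, against a median of 61.3% over the 9445 windows of genes in the table. CpG dinucleotides, the sites of DNA methylation, numbered 27, 25, 24, 19 and 9 in the same order, against a median of 21. Among these windows *Slc2a12* stood at percentile 14.0 and the other 4 between percentiles 40.3 and 67.6. Where *Slc2a12* stands depends on the background: among all 27455 RefSeq windows, whose median is 7 CpG sites, it stood at percentile 53.2 and the other 4 between 72.0 and 85.0. For *Slc2a12* the start site used by RefSeq lies inside the outer bounds of the gene, so other starts of this gene were not covered.

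**Figure D3:**
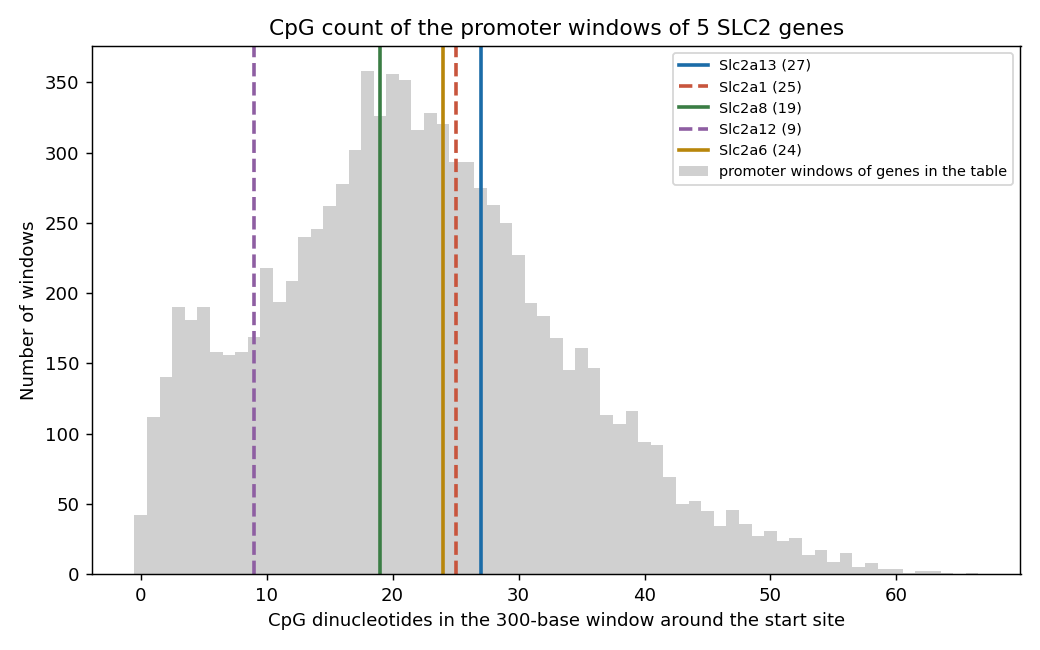
Number of CpG dinucleotides in the 300-base promoter window, for the 9445 windows of genes in the table (grey bars) and each of the 5 SLC2 genes (lines). *Slc2a12* stands at 9, left of the median of 21, and *Slc2a8*, *Slc2a6*, *Slc2a1* and *Slc2a13* stand at 19, 24, 25 and 27.

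A TATAAA match was found in 1 of the 5 windows, that of *Slc2a1*, 24 bases after the RefSeq start site, and 6.36% of the 9445 windows of genes in the table hold one, against 14.3% of the 27455 RefSeq windows. The same window also holds an ACGTG match, 51 bases before the start site, found in 25.5% and 19.7% of these sets of windows. GC boxes occur in the windows of *Slc2a13* (4 matches), *Slc2a1* (3) and *Slc2a6* (3), in 63.7% of the windows of genes in the table and in 34.9% of the RefSeq windows. CCAAT boxes occur in those of *Slc2a8* (3), *Slc2a6* (2) and *Slc2a1* (1), and in 37.6% and 37.7% of the same sets. None of the 5 windows holds the E-box CACGTG, which 9.47% of the windows of genes in the table and 6.65% of the RefSeq windows hold, and the window of *Slc2a12* holds none of the 5 motifs. These are matches of letters, with no measurement of binding or methylation at these windows here.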

How the data were processed

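RNA-seq was measured in the ARC of 10 dams, 5 per diet, grouped by the diet and replicate number in the labels. As the paper's methods and the submitters' processing notes state, the authors trimmed poly-A selected read pairs with Trim Galore 0.5.0, aligned them with STAR 2.6.0c to Rnor_6.0, and counted them on Ensembl genes with HTSeq 0.6.1p2. The authors deposited 1 average log2 CPM per gene, a log2 value scaled to library size and not to length; the tool behind it is not given in the sources used here. As powers of 2 these values sum to 1002152 over the table, close to 1000000. The 4 columns of the authors' own comparison (log2 fold change, F, p-value, FDR) were not used. Another 10 per-library columns, named only by numbers, match no sample label and were used in no step, so that the limma test foreseen between diets, exact permutation tests, correlations over dams and fits without a dam were not made. The number of reads behind each value, and so its precision, is unknown.

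Percentiles are the percent of all rows with a lower value, and the rows are genes that passed the authors' read filter. Members were matched by symbol, as were the lists, which with the members were chosen with earlier results of these data known; every list gene with a row could be named, and 1 gene of the glycolysis list is not reported here. *Tbpl1* and *Cacfd1* fall outside this rule and were named for their position after their values were seen. Promoter windows of 300 bases come from RefSeq on GRCr8, 1 per gene, and 5 of the 8 listed genes matched. Functions were checked on simulated data. The tools were pandas 2.3.3, numpy 2.4.6, matplotlib 3.10.9 and scipy 1.17.1 in Python 3.11.15. Alternatives were the set of genes behind the percentiles and, added after seeing the data, 1 row per symbol and all RefSeq windows as background.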

Additional observations from a re-analysis of the deposited data

How the results depend on the processing

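Counted among the 12383 protein-coding genes only, the percentiles of *Slc2a8*, *Slc2a12* and *Slc2a6* were 54.1, 28.9 and 26.7 in place of 55.3, 30.6 and 28.5. These new values lay outside the 95% exact binomial interval of the rank share. Those of *Slc2a13* and *Slc2a1* stayed inside it, and the largest shift of the 5 was 1.78 percentage points. The interval treats the genes as random draws and holds no spread between dams. It served only as a yardstick for the size of a shift. With 1 row per symbol, chosen after seeing the data, all 5 percentiles stayed inside. Against all 27455 RefSeq windows as background, also chosen after seeing the data, the CpG percentile of *Slc2a12* was 53.2 in place of 14.0, and those of the other 4 genes lay between 72.0 and 85.0, because the median window of the larger set holds 7 CpG sites in place of 21.

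No paired analysis was possible because the per-library columns match no sample label, and no value was set to a dam or its replicate number. For that reason other settings foreseen for the pseudocount, low-value filter, scaling, prior variance, count test and leaving out each dam were not run, and scaling by coding length was not run for want of a length. Levels without a spread limit every statement on order.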
